A study of Mus musculus with 2 samples.

Results

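Type IV collagen, nidogen and perlecan are the core proteins of the basement membrane, and 10 genes that encode them or their relatives were followed here through the cell types of the newborn mouse lung. The genes are Col4a1 to Col4a6, Col15a1, Col18a1, Nid1 and Hspg2. They were taken by symbol, and all 10 were present among the 17758 genes of a single-cell table and among the 16905 symbols of a bulk table. The first group was PDGFRA+ cells sorted from the lung periphery of Pdgfra-H2BGFP mice, a reporter line whose fluorescent histone follows Pdgfra, and its RNA was sequenced in bulk. The second group was sorted cells of wild-type lung periphery, sequenced as single cells with 10x Chromium 3′ v3 chemistry. Both came from control lungs at postnatal day 3, and the labels name no treatment and no count of animals. Each group had 1 sample, so there were no replicates and no test between groups, and every interval below covers counting error only.

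Basement membranes are thin sheets of matrix beneath epithelium and endothelium and around muscle and fat cells. Type IV collagen is built from triple helices, and its 6 chains combine in only 3 ways: α1α1α2, the form found nearly everywhere, α3α4α5, known from the kidney glomerulus and the alveolus, and α5α5α6, known from smooth muscle and skin. Nidogen links the collagen network to laminin, perlecan is a heparan sulfate proteoglycan of the same sheet, and collagens XV and XVIII sit at its border with the stroma. In the alveolus, the sheets of type 1 cells and of capillaries fuse into 1 layer across which gas is exchanged.

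The 6 type IV collagen genes lie in 3 head-to-head pairs, and the sequence at each pair is shown because the members of a pair are compared throughout. Positions are from GENCODE M21 on mm10. Col4a1 (ENSMUSG00000031502.11, chr8:11198423-11312826, minus strand) and Col4a2 (ENSMUSG00000031503.13, chr8:11312805-11449287, plus strand) share 22 bases of their first exons. Col4a4 (ENSMUSG00000067158.9, chr1:82448423-82586849, minus strand) and Col4a3 (ENSMUSG00000079465.8, chr1:82586921-82722059, plus strand) start 71 bases apart, although RefSeq, which includes predicted transcripts, extends Col4a4 to 82587034, past the start of Col4a3. Col4a6 (ENSMUSG00000031273.16, chrX:141165403-141474076, minus strand) and Col4a5 (ENSMUSG00000031274.16, chrX:141475385-141689234, plus strand) are separated by 1308 bases. The first line below gives the start of Col4a1 and Col4a2 (chr8:11312801-11312830, plus strand) with the bases of both first exons in capitals, and the second gives the gap between Col4a4 and Col4a3 (chr1:82586850-82586920, plus strand). The other lines give the bases before Col4a5 (chrX:141475169-141475369, plus strand) and Col4a6 (chrX:141474096-141474326, minus strand), with the CCAAT of the Col4a5 line in capitals. All are RefSeq sequence of GRCm38.p6, read 5′ to 3′.
Col4a1 and Col4a2: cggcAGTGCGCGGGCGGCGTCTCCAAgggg
Col4a3 and Col4a4: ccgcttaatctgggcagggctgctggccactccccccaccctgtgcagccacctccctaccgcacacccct
Col4a5: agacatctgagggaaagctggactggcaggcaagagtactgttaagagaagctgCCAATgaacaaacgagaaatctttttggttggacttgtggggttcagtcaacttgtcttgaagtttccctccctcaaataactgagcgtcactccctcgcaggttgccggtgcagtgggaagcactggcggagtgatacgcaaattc
Col4a6: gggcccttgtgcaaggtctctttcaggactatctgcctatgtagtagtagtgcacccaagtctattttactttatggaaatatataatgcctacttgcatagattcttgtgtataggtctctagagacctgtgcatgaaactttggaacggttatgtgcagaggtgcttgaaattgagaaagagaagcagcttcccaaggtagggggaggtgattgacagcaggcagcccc

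The promoter windows, 250 bases before to 50 after each start, matched 9 of the 10 symbols, all but Col4a3. Col18a1 had 2 windows and the other genes 1 each. GC content was 74.0% for Col4a1 and 73.7% for Col4a2, against 48.3% for Col4a6, 52.7% for Col4a5 and a median of 52.7% over 27025 windows, 1 a gene. Of 4 short motifs searched on both strands, none of which contains another, GGGCGG (the GC box) was found for 7 of the 9 genes and in 35.9% of all windows. CCAAT was found for 5 of the 9 and in 37.9% of all. CCCTCCCC, the core of the CTC box described in the Col4a1 and Col4a2 promoter, was in the windows of Col4a1, Col4a2, Col4a5 and Nid1 and in 10.4% of all. TATAAA was found for 0 of the 9 and in 14.2% of all. The Col4a4 and Col15a1 windows held none of the 4. The Col4a1 and Col4a2 windows overlap, and the GGGCGG in their shared first-exon bases counts for both genes. A match is a run of letters and not a binding site.

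The other 4 genes lie apart from each other and from the collagen IV genes. Col15a1 (ENSMUSG00000028339.17) is at chr4:47208161-47313167 and Hspg2, which encodes perlecan (ENSMUSG00000028763.17), at chr4:137468769-137570630. Col18a1 (ENSMUSG00000001435.15) is at chr10:77052178-77166548 and Nid1, which encodes nidogen 1 (ENSMUSG00000005397.8), at chr13:13437551-13512269. Besides the shared bases of Col4a1 and Col4a2, exons overlapped an antisense or non-coding transcript in Col4a2 (43 bases), Col4a3 (563 bases), Col15a1 (14 bases) and Nid1 (143 bases). No source used here says whether counting used strand, so reads of those stretches cannot be assigned to a strand.

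The single-cell table held 11306 cells with 709 to 3760 detected genes (median 2012), and 10199 were kept in 36 clusters. The bulk table held 171910581 reads. Clusters were made without the 10 genes and named from marker genes, hence "-like". Epithelial-like cells numbered 463 (35 alveolar type 1-like, 404 alveolar type 2-like and 24 ciliated-like), mesenchymal-like cells 2047 and endothelial-like cells 989, with 43 mesothelial-like cells kept apart. Myeloid-like (4421) and lymphoid-like (2236) cells made up the rest. All 12 type 1 markers were detected in the type 1-like cells, led by Ager at 9492 CPM, and all 8 mesothelial markers in the mesothelial-like cells. All 10 ciliated markers were detected in the ciliated-like cells and summed to 10226 CPM. The secretory airway list summed to 11275 CPM there, with 1 of 8 markers at 0 and Cyp2f2 and Cbr2 among the 10 leading genes. This class therefore carries secretory as well as ciliated markers, and its levels cannot be assigned to ciliated cells alone. Vwf led 1 endothelial cluster of 78 cells whose type stayed unnamed. Levels are CPM, the UMIs of a class after the depth correction, summed and brought to 1000000 per class. Sftpc, the surfactant gene of type 2 cells, stood at 256 to 935 CPM in the 14 classes outside the alveolar epithelium, so levels in lymphoid-like cells are given as a background.

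**Figure D1:**
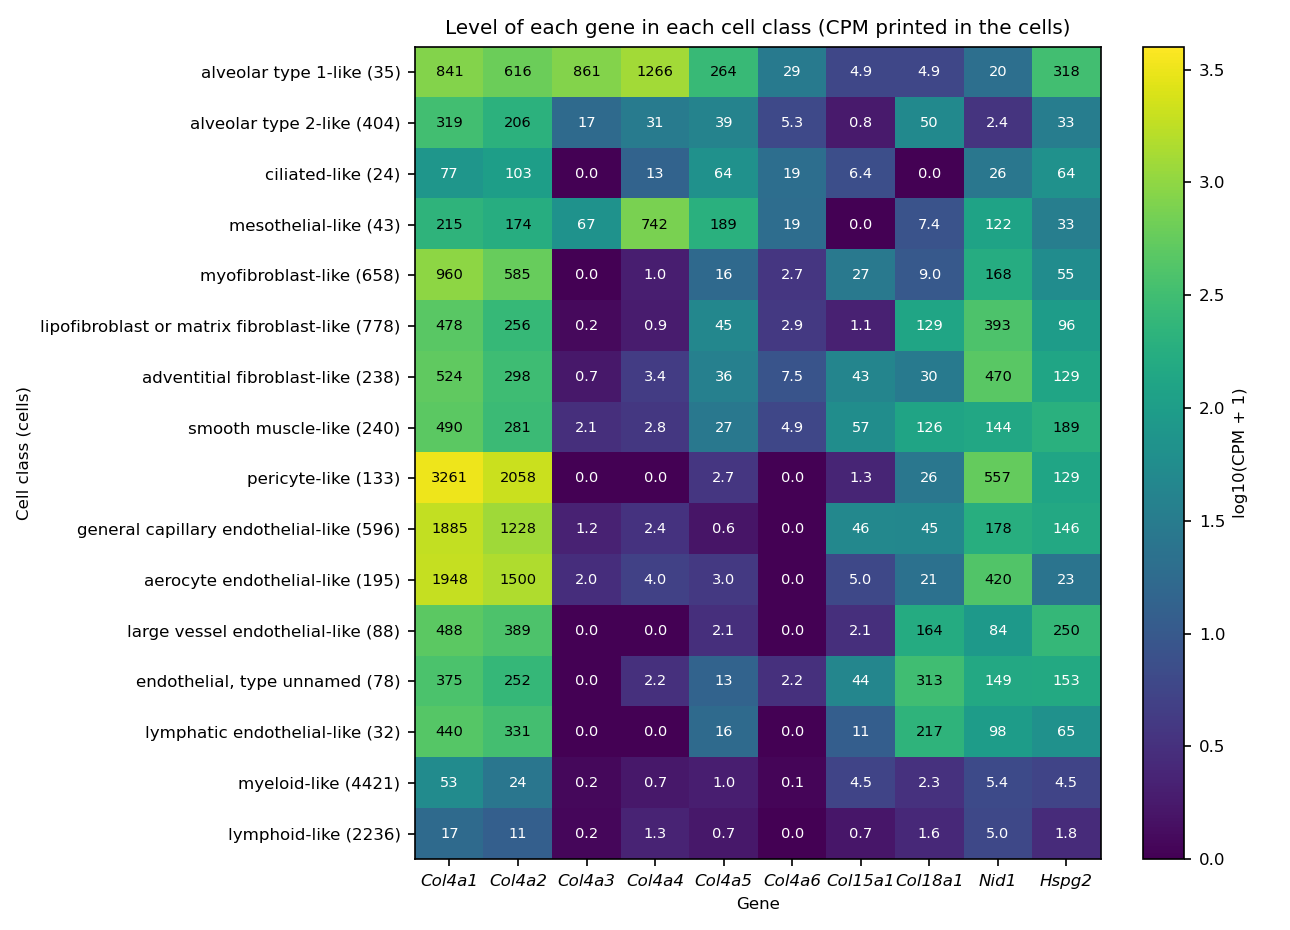
Level of each of the 10 genes (columns) in each of 16 cell classes (rows, with the number of cells), in CPM printed in the cells and coloured as log10(CPM + 1). Col4a1 and Col4a2 were highest in pericyte-like cells (3261 and 2058 CPM), and Col4a3 and Col4a4 were high in alveolar type 1-like cells (861 and 1266 CPM), with Col4a4 also at 742 CPM in mesothelial-like cells.

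Col4a1 and Col4a2, the chains of the common α1α1α2 collagen, were made most by the cells of the capillary wall. Col4a1 stood at 3261 CPM in pericyte-like, 1948 in aerocyte endothelial-like and 1885 in general capillary endothelial-like cells. Col4a2 stood at 2058, 1499.6 and 1228 CPM in the same classes. Pericytes are the mural cells of capillaries, and aerocytes are the capillary endothelial cells specialised for gas exchange. Every pericyte-like cell had a Col4a1 UMI, with 2 to 62 per cell (median 17).

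Myofibroblast-like cells came next for Col4a1 at 960.2 CPM and alveolar type 1-like cells at 841 CPM. A further 6 classes, the adventitial, smooth muscle, lipofibroblast or matrix, large vessel, lymphatic and unnamed endothelial cells, lay between 375 and 524 CPM. Alveolar type 2-like cells were at 319, mesothelial-like cells at 215 and ciliated-like cells at 77.2 CPM, against 16.8 in lymphoid-like cells. For Col4a2 the same 3 classes led, followed by alveolar type 1-like (616 CPM) and myofibroblast-like cells (585 CPM), and every non-immune class exceeded its 11.3 CPM in lymphoid-like cells. Col4a1 was detected in 85.1% (exact Clopper-Pearson 95% interval 81.3% to 88.5%) of alveolar type 2-like cells, against 7.11% (6.08% to 8.26%) of lymphoid-like cells, and the median of detected genes was 2202.5 and 1639. The large vessel level depended on the cell filter: with at least 1000 genes and at most 5% mitochondrial UMIs, log2 Col4a1 was 6.58 in place of 8.93 and log2 Col4a2 6.19 in place of 8.61.

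Because the classes differed in size, the class with the highest level was not the largest source of RNA. General capillary endothelial-like cells were 5.84% of the kept cells and held 29.7% of all Col4a1 UMIs. Myofibroblast-like cells, 6.45% of cells, held 18.3%, and pericyte-like cells, 1.30% of cells, held 11.5%. Epithelial-like cells held 4.61%, close to their share of cells (4.54%). These are shares of a sorted suspension and not of the tissue.

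The ratio of Col4a1 to Col4a2 UMIs varied little. It was 1.23 to 1.87 over the 13 non-immune classes with at least 20 UMIs of each gene (median 1.53), lowest in mesothelial-like and highest in lipofibroblast or matrix fibroblast-like cells, while the Col4a1 level itself spanned 215 to 3261 CPM over those classes. Over the 14 non-immune classes the log2 levels of Col4a1 and Col4a2 had a Pearson r of 0.98, of Col4a3 and Col4a4 0.93 and of Col4a5 and Col4a6 0.92. Col4a3 and Col4a6 had no UMI in several of these classes, and Col4a6 had 73 UMIs in all kept cells. The r of their pairs therefore rest on low counts in many classes. The classes come from 1 library and share its background. Both Col4a1 and Col4a2 were detected in 132 of 133 pericyte-like, 583 of 596 general capillary endothelial-like and 610 of 658 myofibroblast-like cells.

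A neutrophil-like cluster of 1073 cells, led by Asprv1, Csf3r and Ccrl2, stood outside this range. Its Col4a1 was at 123 CPM and its Col4a2 at 29.8 CPM, a ratio of 4.13. Col4a1 was detected in 46.6% (43.6% to 49.6%) of these cells, Col4a2 in 7.55% (6.04% to 9.30%). The other neutrophil-like cluster, of 313 cells led by Camp and Ngp, had Col4a1 in 9.58% (6.56% to 13.4%) and a ratio of 1.34. Median detected genes were 1005 and 1054, both below the 1639 of lymphoid-like cells. A mast-like cluster of 205 cells, led by Tpsb2 and Mcpt4, had 313 CPM of Col4a1 and 178 CPM of Col4a2, a ratio of 1.76. Positive cells of these immune clusters held a median of 1 UMI, and the clusters were singled out after their values were seen. The UMIs are values after the depth correction, and its part in these shares and ratios was not tested. The intervals do not cover it.

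**Figure D2:**
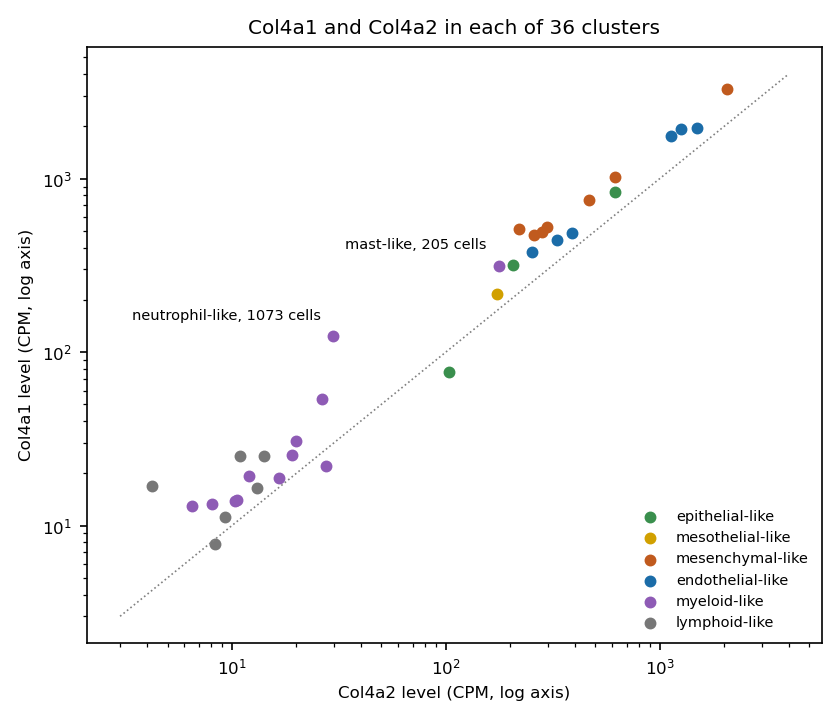
Col4a1 level (vertical, CPM, log axis) against Col4a2 level (horizontal, CPM, log axis) in the 36 clusters, coloured by lineage, with a dotted line where both are equal. A T cell-like cluster of 10 cells, at 0 CPM of both genes, has no place on the log axes. Most clusters run just above the line, and the neutrophil-like cluster of 1073 cells lies well above it, at 123 against 29.8 CPM.

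Col4a3 and Col4a4, the partners of Col4a5 in the α3α4α5 network, were concentrated in alveolar type 1-like cells, the thin cells that cover most of the gas exchange surface. Col4a3 stood at 861 CPM in alveolar type 1-like, 66.7 in mesothelial-like and 16.7 in alveolar type 2-like cells (log2 of 3.47 in place of 4.14 with the stricter cell filter). Col4a4 stood at 1266 CPM in alveolar type 1-like, 742 in mesothelial-like and 30.9 in alveolar type 2-like cells. All other classes were at 12.9 CPM or less for Col4a4 and 2.10 or less for Col4a3. The lymphoid-like levels were 0.163 CPM for Col4a3 and 1.30 CPM for Col4a4.

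Of the 253 Col4a3 UMIs in all kept cells, 69.6% lay in the 35 alveolar type 1-like cells, which were 0.343% of the cells. Of the 600 Col4a4 UMIs, 43.2% lay there and 33.3% in the 43 mesothelial-like cells. Among alveolar type 1-like cells 33 of 35 had a Col4a3 UMI and 35 of 35 a Col4a4 UMI, with 0 to 14 of Col4a3 (median 5) and 2 to 18 of Col4a4 (median 6). By contrast, 0 of 658 myofibroblast-like and 0 of 133 pericyte-like cells had a Col4a3 UMI. Counted as 3 cells, these zeros allow up to 0.456% and 2.26% of cells with a UMI, which limits detection and not expression. With a floor of 3 corrected UMIs per class, Col4a3 was at least 1148-fold higher in alveolar type 1-like than in myofibroblast-like cells.

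Col4a5, the third chain of that network, was also highest in alveolar type 1-like cells at 264 CPM, then in mesothelial-like cells at 189 and ciliated-like cells at 64.4 CPM. It was also present in mesenchymal-like cells, at 45.5 CPM in lipofibroblast or matrix fibroblast-like, 36.4 in adventitial fibroblast-like, 26.7 in smooth muscle-like and 16.2 in myofibroblast-like cells. Alveolar type 2-like cells were at 39.5 CPM. Pericyte-like and the capillary and large vessel endothelial-like cells were at 0.605 to 2.99 CPM, against 0.732 in lymphoid-like cells. Lymphatic and unnamed endothelial cells were at 16.3 and 13.2 CPM from 3 and 6 UMIs. Of all Col4a5 UMIs, mesenchymal-like cells held 58.1% and alveolar type 1-like cells 8.71%.

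All 3 chains of the α3α4α5 network were detected together in 48 of the kept cells. Of these, 29 were alveolar type 1-like (82.9% of that class, 66.4% to 93.4%), 13 mesothelial-like (30.2%, 17.2% to 46.1%) and 6 alveolar type 2-like (1.49%). In each of the other 13 classes the count was 0. Among the 2236 lymphoid-like cells, a count of 0 allows up to 0.134% of cells with UMIs of all 3, by the same limit of 3 cells.

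Mesothelial cells cover the outer surface of the lung, and in the mesothelial-like cells Col4a4 was detected without Col4a3 in 22 of 43 cells, with it in 17 and neither in 4. In alveolar type 1-like cells the same counts were 2, 33 and 0 of 35. UMIs of Col4a4 outnumbered those of Col4a3 by 200 to 18 in mesothelial-like cells, against 259 to 176 in alveolar type 1-like cells. Ager and Rtkn2, type 1 markers, were at 0 in the mesothelial-like cells, where 3 of the 12 type 1 markers (Cldn18 with them) were at 0 and the list summed to 2061 CPM, against 33149 CPM in alveolar type 1-like cells. Conversely, the mesothelial list summed to 1218 CPM in alveolar type 1-like cells with 5 of 8 markers at 0, among them Wt1, and to 14575 CPM in mesothelial-like cells.

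In the alveolar type 2-like cells 84 of 404 had a Col4a3 or Col4a4 UMI. Hopx, a type 1 marker, was detected in 28.6% (19.2% to 39.5%) of these 84 cells, against 10.0% (6.94% to 13.8%) of the 320 with neither, and the median of detected genes was 2337.5 and 2120. Aqp5, another such marker, was detected in 29.8% (20.3% to 40.7%) of the 84 and 20.3% (16.04% to 25.1%) of the 320, and these intervals overlap. Rtkn2 was detected in 7.14% (2.67% to 14.9%) of the 84 and 1.25% (0.342% to 3.17%) of the 320, and these intervals overlap too. All 84 had an Sftpc UMI, with a mean of 1242 per cell against 1311 in the other 320. The part of doublets in this was not tested, and predicted doublets had been removed.

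**Figure D3:**
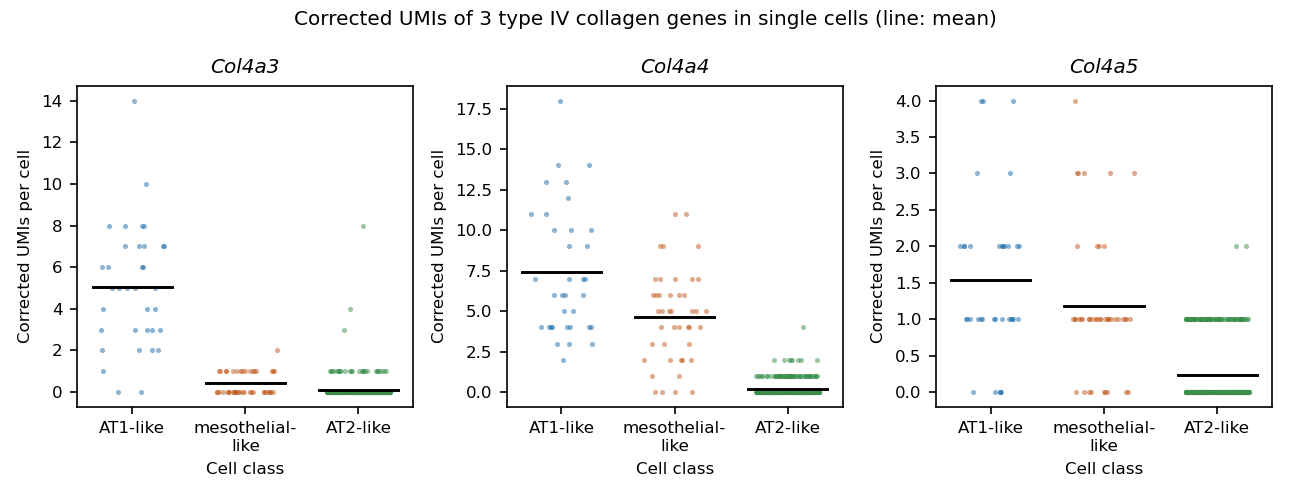
Corrected UMIs per cell (vertical) of Col4a3, Col4a4 and Col4a5 in 35 alveolar type 1-like (AT1), 43 mesothelial-like and 404 alveolar type 2-like (AT2) cells, 1 point a cell with sideways jitter and a line at the mean. Mesothelial-like cells overlap the alveolar type 1-like cells in Col4a4 and Col4a5 but hold at most 2 UMIs of Col4a3.

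Col4a6, the α6 chain that pairs with α5, was the scarcest of the 10 genes with 73 UMIs in all kept cells. Its level was 29.3 CPM in alveolar type 1-like cells from 6 UMIs, 19.3 in ciliated-like cells from 3 and 18.5 in mesothelial-like cells from 5. Adventitial fibroblast-like cells were at 7.55, alveolar type 2-like cells at 5.29 and smooth muscle-like cells at 4.91 CPM. None was detected in pericyte-like cells or in the general capillary, aerocyte, large vessel and lymphatic endothelial-like classes. In the 596 general capillary endothelial-like cells a count of 0 allows up to 0.503% of cells with a UMI, by the same limit. At these counts the order of the classes cannot be read.

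Collagens XV and XVIII, whose cleaved ends are known as restin and endostatin, followed other classes. Col15a1 was highest in smooth muscle-like cells at 56.8 CPM, followed by general capillary endothelial-like cells at 46.2, unnamed endothelial cells at 43.8, adventitial fibroblast-like cells at 42.5 and myofibroblast-like cells at 27.5. Aerocyte endothelial-like cells were at 4.99 CPM and myeloid-like cells at 4.5 CPM. Myeloid-like cells, 43.3% of cells, held 19.3% of all Col15a1 UMIs. Pericyte-like cells were at 1.35 and lipofibroblast or matrix fibroblast-like cells at 1.13 CPM, near the 0.651 of lymphoid-like cells. In smooth muscle-like cells 23.3% (18.1% to 29.2%) had a UMI, against 0.358% (0.155% to 0.704%) of lymphoid-like cells. Their median detected genes were 2403 and 1639.

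Col18a1 was highest in unnamed endothelial cells at 313 CPM, then in lymphatic at 217 and large vessel endothelial-like cells at 164. Lipofibroblast or matrix fibroblast-like cells were at 129 and smooth muscle-like cells at 126 CPM. General capillary and aerocyte endothelial-like cells were lower, at 44.7 and 21.0 CPM, and myofibroblast-like cells were at 8.99. In the epithelium it was the member that favoured the other alveolar type: 4.89 CPM (1 UMI) in alveolar type 1-like cells, against 50.4 CPM (124 UMIs) in alveolar type 2-like cells. By UMIs, lipofibroblast or matrix fibroblast-like cells held 38.7% of all Col18a1.

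Nid1 was made by mesenchymal and endothelial cells and hardly by epithelium. It stood at 557 CPM in pericyte-like, 470.0 in adventitial fibroblast-like, 420 in aerocyte endothelial-like and 393 in lipofibroblast or matrix fibroblast-like cells. Alveolar type 2-like cells were at 2.44 CPM, below the 5.04 of lymphoid-like cells, and alveolar type 1-like cells at 19.6 CPM from 4 UMIs. Mesenchymal-like cells held 73.1% of all Nid1 UMIs, endothelial-like cells 22.3% and epithelial-like cells 0.275%. In pericyte-like cells 94.0% (88.5% to 97.4%) had a UMI, against 2.50% (1.90% to 3.24%) of lymphoid-like cells. Their median detected genes were 2230 and 1639.

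Hspg2 was above its background in every non-immune class. Its level was 318 CPM in alveolar type 1-like, 250.4 in large vessel endothelial-like, 189 in smooth muscle-like, 153 in unnamed endothelial and 146 in general capillary endothelial-like cells. The lowest non-immune class was the aerocyte endothelial-like one at 22.9 CPM, against 1.79 in lymphoid-like cells. Of alveolar type 1-like cells, 85.7% (69.7% to 95.2%) had a UMI, against 0.939% (0.582% to 1.43%) of lymphoid-like cells. Their median detected genes were 2346 and 1639.

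Leaving out Col4a6, whose order cannot be read, 4 of the other 9 genes (Col4a3, Col4a4, Col4a5 and Hspg2) had their highest level in alveolar type 1-like cells, where 7.1% of the 15397 genes with at least 20 UMIs had theirs. Pericyte-like cells were highest for Col4a1, Col4a2 and Nid1, smooth muscle-like cells for Col15a1 and unnamed endothelial cells for Col18a1.

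Epithelial-like cells were then set against mesenchymal-like cells, with 1 CPM added to both levels before the log2 ratio. Col4a3 (5.79) and Col4a4 (5.65) were the 2 members that reached 1, as 12.7% of 13655 genes did. Col4a1 (-1.24), Col4a2 (-1.07), Col15a1 (-3.21) and Nid1 (-5.70) were the 4 members at -1 or less, where 24.2% of genes were. Col4a5 (0.91), Col4a6 (0.98), Col18a1 (-0.66) and Hspg2 (-0.84) lay between. The median over the 10 members was -0.75, and over all genes -0.38. Without the pericyte-like cells, a choice made after the data were seen, Col4a1 was at -0.93 and Col4a2 at -0.72, which left 2 members at -1 or less. With each cell type of a lineage counted once, Col4a5 (2.22) and Col4a6 (2.04) also passed 1, Col18a1 (-1.74) passed -1 and Hspg2 turned to 0.21. The epithelial Col4a6 level rests on 6 alveolar type 1-like, 13 alveolar type 2-like and 3 ciliated-like UMIs.

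Against endothelial-like cells, the 4 minor chains were higher in epithelial-like cells: Col4a3 at 5.21, Col4a4 at 5.15, Col4a5 at 3.95 and Col4a6 at 2.89, where 16.4% of 12299 genes were at 1 or more. Col4a1 (-2.21), Col4a2 (-2.24), Col15a1 (-3.83), Nid1 (-5.14) and Hspg2 (-1.23) were the 5 members at -1 or less, where 22.2% of genes were. The median was -1.03 over the members and -0.29 over all genes. Col4a6 rests on 23 UMIs, and Hspg2 was at 0.19 with each cell type counted once.

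Mesenchymal-like over endothelial-like levels differed less. Col4a5 (3.03) and Col4a6 (1.92) were the 2 of 9 measured members at 1 or more, where 17.4% of 13403 genes were. The Col4a6 ratio rests on 42 mesenchymal-like UMIs and 1 endothelial-like UMI, at 3.48 and 0.184 CPM, so its size depends on the added 1 CPM. Col4a2 (-1.17) was the 1 member at -1 or less, where 9.65% were, and Col4a1 lay just inside at -0.97. Nid1 was at 0.56, Col18a1 at -0.16, Hspg2 at -0.39, Col4a4 at -0.50 and Col15a1 at -0.61. Without the pericyte-like cells the mesenchymal Col4a1 level was 656 CPM in place of 816, and Col4a1 (-1.28) and Col4a2 (-1.52) were both below -1. With each cell type counted once, 0 members were.

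**Figure D4:**
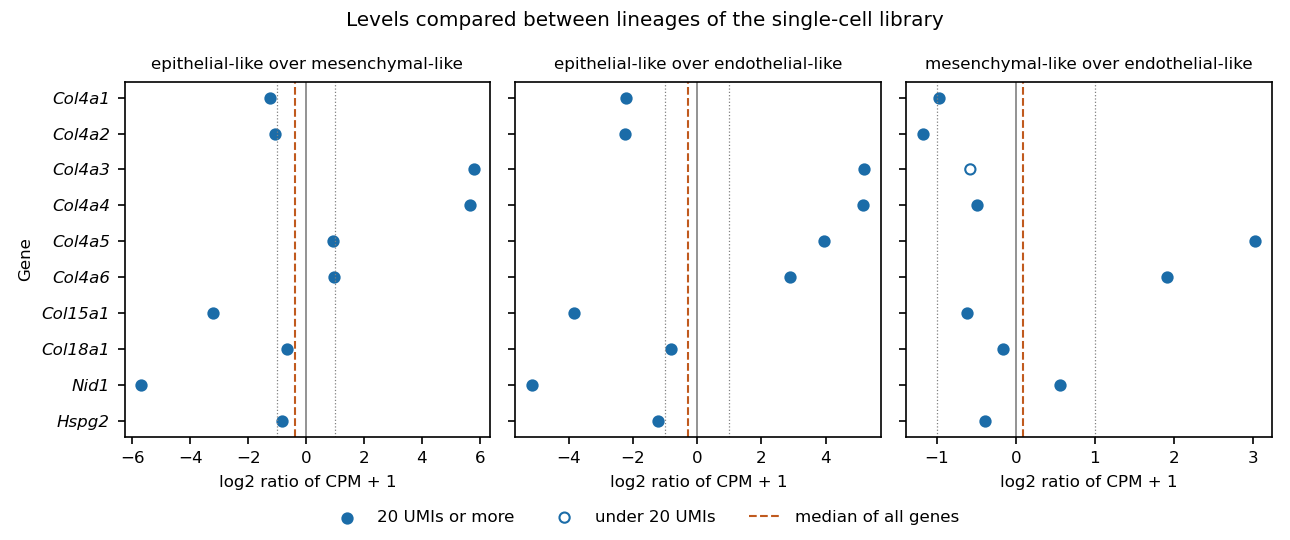
Log2 ratio of CPM + 1 (horizontal) of each gene in 3 comparisons between lineages of the single-cell library, with dotted lines at -1 and 1 and a dashed line at the median of all genes. Col4a3 and Col4a4 lie above 5 in both epithelial comparisons, Nid1 lies below -5 in both, and the open circle marks Col4a3, which had under 20 UMIs in the third.

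The epithelial ratios averaged 2 unlike alveolar types. In alveolar type 1-like over alveolar type 2-like cells, 6 of the 7 measured members were at 1 or more, where 19.1% of 9412 genes were. They were Col4a3 (5.61), Col4a4 (5.31), Hspg2 (3.25), Col4a5 (2.71), Col4a2 (1.57) and Col4a1 (1.39). Col18a1 (-3.13) was the 1 member at -1 or less, where 18.6% of genes were, and the other 3 had under 20 UMIs. The 35 alveolar type 1-like cells were 7.56% of epithelial-like cells and held 81.1% of their Col4a3, 76.9% of their Col4a4, 41.9% of their Hspg2 and 17.8% of their Col4a1 UMIs. Taken alone over mesenchymal-like cells, they were at 0.04 for Col4a1 and 0.35 for Col4a2, where alveolar type 2-like cells were at -1.35 and -1.23. Over endothelial-like cells they were at -0.93 and -0.83. The endothelial marker list summed to 895 CPM in alveolar type 1-like cells, against 9613 CPM in general capillary endothelial-like cells, and its part in these levels was not tested.

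The 2 capillary endothelial types lay close in Col4a1 and Col4a2 (log2 ratios of 0.05 and 0.29, aerocyte over general capillary) and further apart in the other 4 measured members. Nid1 (1.24) was the 1 of 6 measured members at 1 or more, where 6.89% of 10164 genes were. Col15a1 (-2.98), Hspg2 (-2.62) and Col18a1 (-1.06) were the 3 at -1 or less, where 12.9% were. In CPM, Hspg2 was 22.9 in aerocyte endothelial-like and 146 in general capillary endothelial-like cells, and Col15a1 was 4.99 and 46.2.

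Among fibroblast-like cells, Col15a1 (3.74), Col4a2 (1.19) and Col4a1 were the 3 of 8 measured members at 1 or more in myofibroblast-like over lipofibroblast or matrix fibroblast-like cells, where 10.1% of 12041 genes were. Col18a1 (-3.71), Col4a5 (-1.43) and Nid1 (-1.22) were the 3 at -1 or less, where 7.54% were. Col4a1 only just reached it, at 960.2 CPM in myofibroblast-like and 478 CPM in lipofibroblast or matrix fibroblast-like cells. Myofibroblasts are the contractile cells of the alveolar septum at this age and lipofibroblasts its lipid-storing cells. A cycling cluster of 140 myofibroblast-like cells had lower levels than the 518 others for Col4a1 (756 and 1017 CPM) and Col15a1 (14.9 and 31.0 CPM), and its Nid1 was 156 against 172 CPM. Other types differed. The cycling lipofibroblast or matrix fibroblast-like cluster was higher in Col4a1 (511 against 475 CPM) and Col15a1 (2.69 against 0.983 CPM). In general capillary endothelial-like cells the cycling cluster was lower in Col4a1 (1770.5 against 1925 CPM) and higher in Col15a1 (53.8 against 43.6 CPM).

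The mural cells, pericytes and smooth muscle, also differed. Pericyte-like over smooth muscle-like cells had log2 ratios of 2.73 for Col4a1, 2.87 for Col4a2 and 1.94 for Nid1, and of -4.62 for Col15a1, -2.90 for Col4a5 and -2.25 for Col18a1. Hspg2 lay between at -0.55.

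For 5 of the genes, other genes with the most similar log2 level over the 16 classes were found among 12851 genes. Col4a1 was most like Fermt2, which encodes the integrin activator kindlin 2 (r = 0.90), Map4k3 (0.88) and Ptprk (0.86). Col4a3 was most like the type 1 cell aquaporin gene Aqp5 (0.96), and Arhgap22 was at 0.87. Col4a5 was most like Nrbp2 (0.91), Smpd1 (0.90) and Pdxdc1 (0.88), and Hspg2 most like Dab2ip (0.89), Wwtr1 (0.89) and Epn2 (0.88). For Col15a1 the highest r was 0.73, with Socs3, Creb5 and Gem. The classes share 1 library, and these r are descriptions.

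Other genes of the basement membrane were counted in lists. Among 28 measured other components, such as laminins, 5 reached 1 and 16 reached -1 in epithelial-like over mesenchymal-like cells (median -1.49, all genes -0.38). Over all genes in this comparison, 12.7% reached 1 and 24.2% reached -1, and the next 3 lists are set against the same shares. Lama4 (-6.19), Lama2 (-6.05) and Egflam (-5.78), which encode 2 laminin α chains and pikachurin, were lower, and the laminin β3 gene Lamb3 (5.51) was higher, at 323 CPM in alveolar type 1-like cells. Of 19 measured genes for collagen synthesis, secretion and crosslinking, 0 reached 1 and 12 reached -1 (median -1.82). They included the lysyl oxidase gene Loxl2 (-6.07), the prolyl hydroxylase genes P3h3 (-4.73) and P4ha3 (-3.29) and the collagen chaperone gene Fkbp10 (-3.05).

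Of 15 receptors, 7 reached 1 and 6 reached -1 in the same comparison (median 0.08). The collagen receptor genes Ddr2 (-5.60) and Itga1 (-5.04) and the syndecan gene Sdc2 (-4.29) were lower in epithelial-like cells. Itga1, the α1 subunit of an integrin that binds type IV collagen, was highest in pericyte-like cells at 1749 CPM, where Col4a1 was also highest. The laminin receptor gene Bcam (3.84) was higher in epithelial-like cells, at 1164 CPM in alveolar type 1-like cells. In the list of proteases, which also held the protease inhibitor gene Timp3, 10 genes were measured. Of these, 1 was at 1 or more and 3 at -1 or less (median -0.73), close to the 12.7% and 24.2% of all genes. They were the gelatinase gene Mmp2 (-6.71), the membrane-type protease gene Mmp14 (-4.37) and the cathepsin L gene Ctsl (-2.03), with Mmp15, another membrane-type protease gene, at 3.68.

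In mesenchymal-like over endothelial-like cells, 16 of 27 measured other components reached 1 and 2 reached -1 (median 1.44, all genes 0.10), where 17.4% and 9.65% of all genes did. Of 20 synthesis and crosslinking genes, 9 reached 1 and 1 reached -1 (median 0.63). In epithelial-like over endothelial-like cells 8 of 23 components reached 1 and 8 reached -1 (median -0.041), and 5 and 10 of 20 synthesis genes did, where 16.4% and 22.2% of all genes did (median -0.29).

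The bulk library gave the levels of PDGFRA+ cells per length, as the authors' TPM with Poisson 95% intervals. Col4a1 was highest at 961 (958 to 963) TPM, followed by Col4a2 at 539 (537 to 540) and Nid1 at 292 (290.1 to 293). Hspg2 stood at 108 (108 to 109) and Col15a1 at 96.2 (95.3 to 97.1) TPM. Col4a5 stood at 52.4 (51.8 to 53.0), Col18a1 at 39.7 (39.2 to 40.3) and Col4a6 at 17.3 (16.9 to 17.6) TPM. Col4a4 and Col4a3 were at 0.50 (0.45 to 0.55) and 0.08 (0.061 to 0.10) TPM. In this order no neighbouring intervals overlapped. Col4a1 ranked at the 99.1 percentile of the 16905 genes and Col4a3 at the 9.38 percentile, where 100 is the highest. The ratio of Col4a1 to Col4a2 was 1.78 and of Col4a5 to Col4a6 3.03 in TPM.

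The bulk library also held markers of other cells. The 6 erythroid markers, hemoglobin genes among them, summed to 40637 TPM (median 6539), the highest sum of the marker lists, while the 7 mesenchymal markers summed to 27712 TPM. In the single-cell classes the erythroid list summed to 2.10 to 22.2 CPM. The monocyte list summed to 1908 TPM with a median of 4.17 TPM. The 12 type 1 cell markers were all listed, with Ager at 19.4 TPM, 2 of them under 1 TPM and a median of 10.4 TPM, while Col4a3 was at 0.08 TPM. Sftpc was at 211 TPM, the pericyte marker Cspg4 at 10.2 TPM and the endothelial marker Pecam1 at 3.87 TPM, against 54.0 TPM for Pdgfra and 345 TPM for Tcf21, a matrix fibroblast marker. In bulk RNA, fewer cells of a type and less RNA per cell cannot be told apart, and the part of these other cells in the collagen levels was not tested.

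Set beside the single-cell mesenchymal-like cells, the bulk level, as reads per 1000000 (CPM), reached a log2 ratio of 1 for 7 of 8 measured members, as it did for 21.3% of 12110 genes. None of the members was at -1 or less, where 22.2% of genes were. The values were 3.72 for Col4a6, 3.50 for Col15a1, 2.97 for Hspg2, 2.50 for Col4a5, 1.99 for Col4a1, 1.87 for Col4a2 and 1.54 for Nid1, with Col18a1 at 0.78. Bulk reads grow with transcript length and 3′ UMIs do not. With TPM in place of CPM, 2 members passed 1, Col15a1 at 2.11 and Col4a6 at 2.03, where 10.7% of genes did. The median was then 0.19 over the members and -0.35 over all genes, with Nid1 at -0.081 and Col18a1 lowest at -0.81. Hspg2, the longest of the members at 14307 exonic bases, was at 0.12 with TPM. The levels side by side were 96.2 TPM in bulk and 21.5 CPM in mesenchymal-like cells for Col15a1, and 17.3 TPM and 3.48 CPM for Col4a6. The mesenchymal-like set includes cells with little Pdgfra: 1.35 CPM in pericyte-like and 8.42 in smooth muscle-like cells, against 327 in myofibroblast-like cells. Both the assays and the sets of cells differ, so such a gap cannot be assigned to either.

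**Figure D5:**
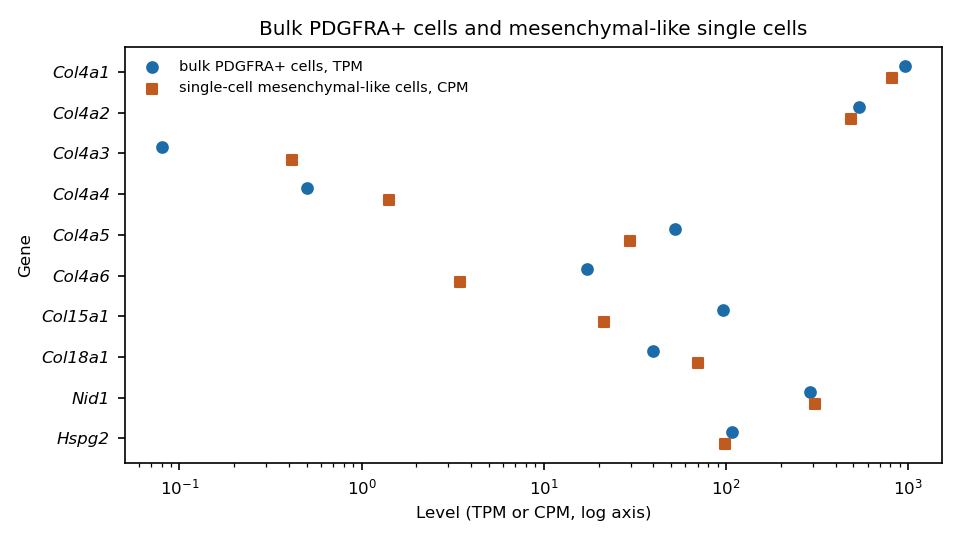
Level of each gene (horizontal, log axis) in bulk PDGFRA+ cells (circles, TPM) and in single-cell mesenchymal-like cells (squares, CPM). The first 4 and the last 3 genes stand in the same order in both, with Col4a3 and Col4a4 at or under 0.50 TPM in bulk and at or under 1.41 CPM in mesenchymal-like cells. Bulk lies furthest above the single-cell level at Col4a6 and Col15a1. The widest gap below it is at Col4a3, at 0.08 TPM in bulk and 0.414 CPM in mesenchymal-like cells. That mesenchymal Col4a3 level rests on 5 UMIs and did not count as measured. Among the measured genes, bulk lies furthest below at Col18a1, at 39.7 TPM in bulk and 70.6 CPM in mesenchymal-like cells.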

How the data were processed

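The single-cell library (1 sample) and the bulk library (1 sample) were analysed as deposited. Per the submitters' processing notes, Cell Ranger 5.0 and Seurat 3.2.2 were used for the first and mm10, HISAT2, Trim Galore, featureCounts and DESeq2 for the second. No source used here names the build behind the single-cell values. The deposited single-cell values were treated as a score: whole-number UMIs that look corrected for depth, since cell totals span 1.79-fold. The plan had assumed raw counts, so no Poisson interval or thinning was applied to them. For bulk, an expected count (15.9% not whole), a TPM and an FPKM made by the authors were given per the file headers, with no further steps named. The FPKM was not used, and 1 of 16906 entries with a repeated symbol was dropped.

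Cells with under 500 genes (0) or over 10% mitochondrial UMIs (646) were left out, and 461 of 10660 (4.32%) were removed as doublets by Scrublet (scanpy 1.11.5, expected share 5%). Leiden clustering (resolution 1, 30 components, 15 neighbours) used 2000 variable genes without the 10 genes, the pathway lists and mitochondrial or ribosomal genes. A cluster took the lineage with the best mean centred log2 marker level (at least 1, any other lineage under 0.5 of it, 3 markers detected), and within it the type with most markers among its 20 leading genes, unless another type had more among the first 10. That rule was set after seeing the data. Log2 ratios add 1 CPM to both sides. A gene counts as measured with 20 UMIs over the classes compared. Shares carry Clopper-Pearson 95% intervals, and a share of 0 the limit that 3 cells give. The ratio step was tested on simulated data. All 10 genes are named, with up to 4 genes of each list by size of ratio among those with 100 UMIs, and 3 similar genes for 5 members, of which 1 is not reported here. Members and lists were chosen with earlier results of these data known.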

Additional observations from a re-analysis of the deposited data

How the results depend on the processing

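The class with the highest level of each gene was the same in 40 of 40 results under a stricter cell filter (1000 genes, 5% mitochondrial UMIs), doublets kept, resolution 2 and equal cell totals. Of 296 class levels 3 moved, all with the stricter filter: on the log2 scale Col4a1 in large vessel endothelial-like cells was at 6.58 in place of 8.93, Col4a2 there at 6.19, and Col4a3 in alveolar type 2-like cells at 3.47. The cause was not tested. Comparisons between classes and libraries depended more on the processing. Of 60 counts 7 moved, of 203 lineage ratios 45 moved and 1 reversed, and of 48 bulk results 19 moved and 1 reversed. With each cell type counted once, 4 members were higher and 5 lower in epithelial-like over mesenchymal-like cells, where Hspg2 turned to 0.21, 0 were lower in mesenchymal-like over endothelial-like cells, and Hspg2 in epithelial-like over endothelial-like cells turned to 0.19. With a log2 threshold of 2, 2 members were lower in the first comparison, 1 was higher and 0 lower in mesenchymal-like over endothelial-like cells, and with 10 CPM added 1 was higher there. Without pericyte-like cells (added after seeing the data) 2 members were lower in each of these comparisons. With at least 100 UMIs, 10.8% of all genes were higher in epithelial-like over endothelial-like cells. With TPM in place of CPM, 2 members were higher in bulk and Nid1 turned to -0.081. No paired analysis was possible because each group had 1 sample. The 24 ciliated-like, 32 lymphatic endothelial-like and 35 alveolar type 1-like cells limit the precision of those classes.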
